A study of Mus musculus with 11 samples.

Results

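The transcripts described here belong to the interleukin-1 (IL-1) family: the cytokines Il1a, Il1b, Il18 and Il33, the receptor antagonist Il1rn, the receptors and co-receptor Il1r1, Il1r2, Il1rl1 and Il1rap, and the IL-18 binding protein Il18bp. They were chosen by gene symbol, with the brightest transcript cluster taken where a symbol has several. Of the 10 listed genes 9 were measured, each by 1 cluster, among 22206 clusters in all. Il1rl1 was not analysed here. RNA came from liver sinusoidal endothelial cells, the fenestrated lining of the hepatic capillaries, of mice that were 8 weeks old when a high fat diet began and had eaten it for 2 weeks. The wild type group (6 arrays) carried Atg5lox/lox, that is, floxed alleles of the autophagy gene Atg5 and no Cre. The knockout group (5 arrays) carried Atg5lox/lox;VE-cadherin-Cre, in which an endothelial promoter drives the recombinase. Both groups thus shared the floxed alleles and the diet. The samples are titled as numbered biological replicates, and p-values of genotype differences set the difference against the variation between these replicates.

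IL-1 alpha and IL-1 beta act through the receptor encoded by Il1r1 together with the shared co-receptor encoded by Il1rap, and signal through MYD88 and IRAK kinases to NF-kB. Il1rn and Il1r2 oppose them, the first as a soluble antagonist of the receptor and the second as a decoy. IL-1 beta and IL-18 are made as precursors that are cut by caspase-1, whereas IL-33 is stored in the nucleus of endothelial and stromal cells. In liver, macrophages are a main source of IL-1 beta, and endothelial cells respond to it with chemokines and adhesion molecules.

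The preparations carried an endothelial profile in both groups. All 18 measured markers of sinusoidal endothelium read above the array's own antigenomic background (the mean of probes that match no mouse sequence) in all 11 arrays, and their mean lay between 11.44 and 11.83 on the log2 scale over all arrays. Atg5 read 7.50 ± 0.09 (wild type, SD, n = 6) against 7.60 ± 0.17 (knockout, SD, n = 5). The position of its probes against the floxed stretch was unknown, so the reading is no check of the labels, which all directions here follow. Markers of other liver cells were present. The mean of 17 macrophage markers ran from 7.18 to 8.42 in wild type and from 7.75 to 10.07 in knockout, with 16 of the 17 above background in every array. The mean of 21 hepatocyte markers ran from 8.56 to 9.96 and from 7.65 to 9.21. All 21 lay below 0 between genotypes, with a median difference of -0.90. Of these, 13 were at least 1.5-fold lower at an uncorrected limma p of 0.05 or less, as were 0.356% of all clusters. Neutrophil marker means ran from 5.88 to 7.10 and from 5.82 to 7.58, and stellate cell marker means from 7.66 to 8.76 and from 7.87 to 9.0. Array medians lay between 6.61 and 6.75. In such bulk RNA, a different number of cells of a type and a different amount of RNA per cell cannot be told apart.

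Transcripts of the secreted agonist Il1b and of its antagonist Il1rn were both higher in knockout, whereas Il1a was not. Il18 read higher as well but close to background, and Il18bp, Il33 and Il1rap differed upward by less than 1.5-fold. The receptors Il1r1 and Il1r2 had differences near 0. The study calls a gene when its fold is 1.5 or more and its uncorrected p is 0.05 or less, a p taken here from the limma fit over all clusters. This rule was met by 3 of the 9 genes, all higher in knockout, against 0.671% of all clusters called higher, 0.356% called lower and 1.03% called in either direction. A Benjamini-Hochberg adjusted p of 0.05 in limma was passed by 0 clusters, the 9 genes included, while 4 of the 9 and 6.39% of all clusters had an unadjusted p of at most 0.05. Of the 9 differences 6 lay above 0, with a median of 0.37 on the log2 scale, beside a median of -0.02 over all clusters.

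**Figure D1:**
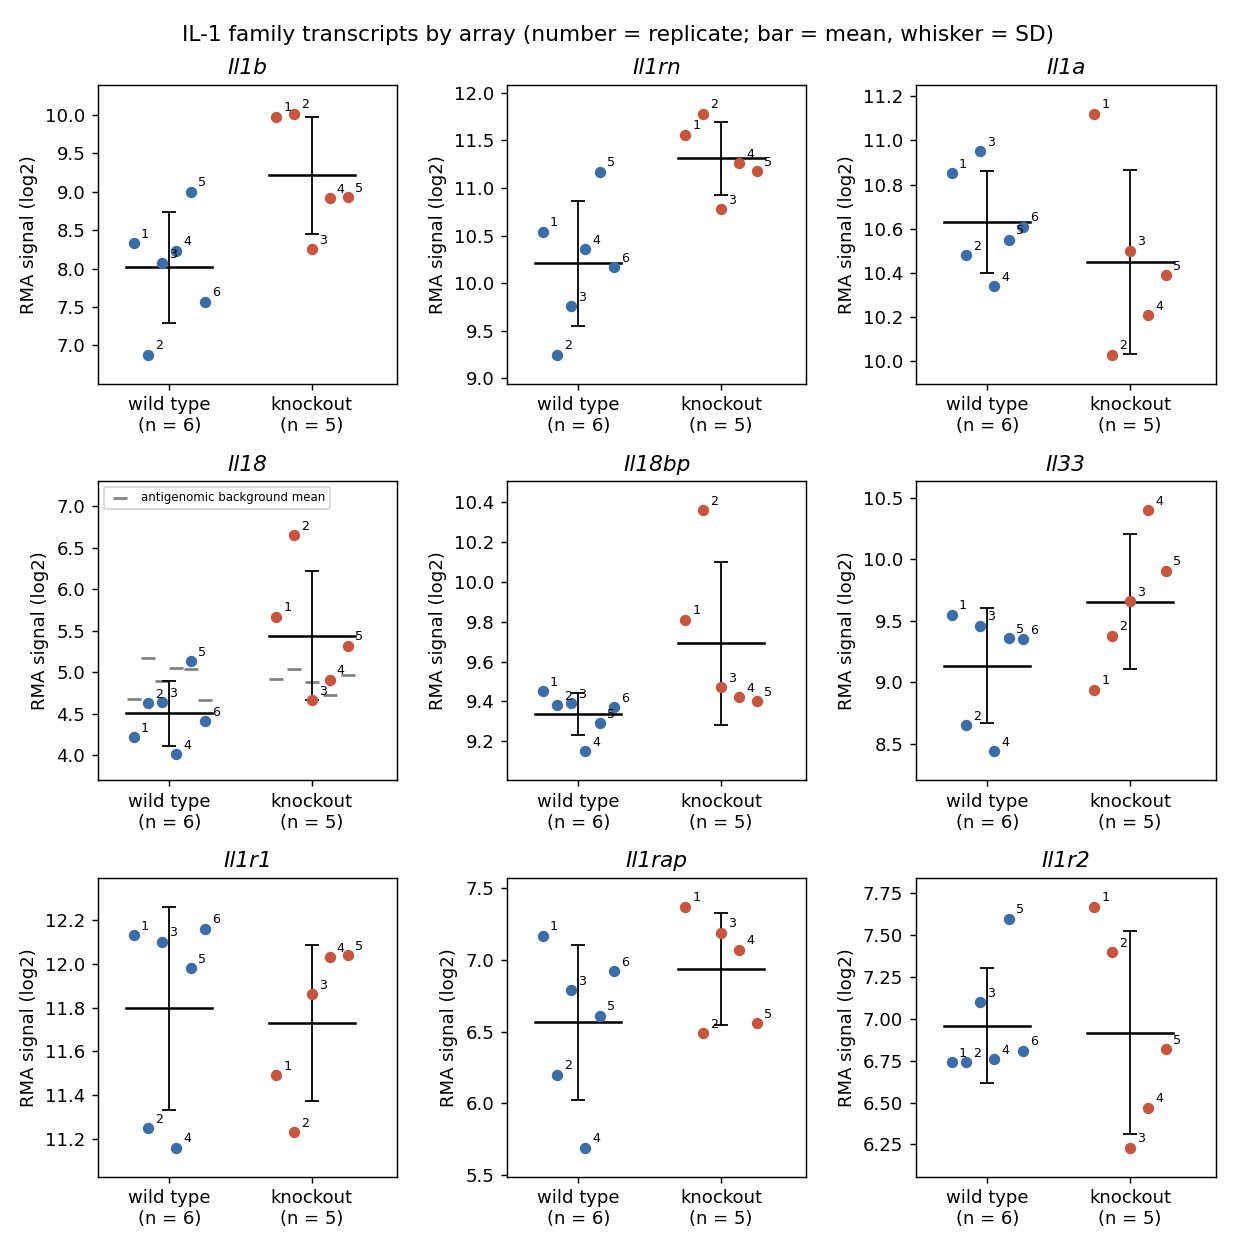
RMA signal (log2) of 9 IL-1 family transcripts in 6 wild type and 5 knockout arrays; points are arrays with their replicate number, bars the group mean and whiskers the SD, and grey dashes in the Il18 panel each array's antigenomic background mean. For Il1rn, 4 of 5 knockout arrays lie above every wild type array, and for Il18 only wild type array 5 exceeds its background in that group.

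The 5′ flanks of the 3 genes that met the rule, and of Il1a for contrast, are shown so that the neighbouring genes Il1a and Il1b, of which Il1b alone met the rule, can be compared by sequence. In the RefSeq gene order of GRCm38.p6 these genes sit next to each other on chromosome 2. Each window covers 250 bases before to 50 bases after an annotated start, 5′ to 3′ on the gene's strand, from RefSeq (GRCm38.p6). Windows were found for all 9 measured genes, 13 in all. They lie at chr2:129371090-129371389 (minus strand) for Il1b, chr2:129309923-129310222 (minus strand) for Il1a, chr2:24345121-24345420 (plus strand) for the last of 3 annotated starts of Il1rn, and chr9:50554450-50554749 (plus strand) for Il18. Capitals mark matches on either strand to a TATA box (TATAAA), an AP-1 motif (TGANTCA) and a C/EBP motif (TTGNGNAA).
Il1b: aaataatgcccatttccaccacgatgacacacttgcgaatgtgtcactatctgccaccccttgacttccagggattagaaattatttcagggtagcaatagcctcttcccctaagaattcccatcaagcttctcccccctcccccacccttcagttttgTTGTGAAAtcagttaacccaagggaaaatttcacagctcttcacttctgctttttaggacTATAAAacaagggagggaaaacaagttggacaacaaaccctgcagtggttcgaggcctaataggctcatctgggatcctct
Il1a: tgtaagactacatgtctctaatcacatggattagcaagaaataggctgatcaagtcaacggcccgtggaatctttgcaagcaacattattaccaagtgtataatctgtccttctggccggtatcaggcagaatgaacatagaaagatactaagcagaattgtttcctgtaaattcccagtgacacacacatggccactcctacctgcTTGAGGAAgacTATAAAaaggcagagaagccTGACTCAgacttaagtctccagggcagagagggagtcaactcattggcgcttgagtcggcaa
Il1rn: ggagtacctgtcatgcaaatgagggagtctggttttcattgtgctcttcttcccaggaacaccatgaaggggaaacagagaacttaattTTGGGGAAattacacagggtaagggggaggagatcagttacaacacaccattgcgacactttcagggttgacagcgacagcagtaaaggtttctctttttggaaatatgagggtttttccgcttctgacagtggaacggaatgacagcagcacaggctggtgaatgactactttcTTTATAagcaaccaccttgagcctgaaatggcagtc
Il18: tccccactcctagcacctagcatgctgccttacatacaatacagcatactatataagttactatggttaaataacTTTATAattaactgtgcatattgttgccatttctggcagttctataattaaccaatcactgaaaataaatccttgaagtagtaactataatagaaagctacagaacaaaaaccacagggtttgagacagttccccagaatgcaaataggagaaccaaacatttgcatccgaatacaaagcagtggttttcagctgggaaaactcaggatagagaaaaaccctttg

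Il1b and Il1a both held TATAAA on the gene's strand, beginning 31 and 32 bases before the start. Both also held TTGNGNAA, as TTGTGAAA beginning 91 bases before the start of Il1b and as TTGAGGAA beginning 43 bases before that of Il1a. The Il1a window also held TGACTCA, beginning 12 bases before the start, and the Il1b window held no AP-1 match. In the Il1rn window TTGGGGAA began 161 bases before the start, and TATAAA was read on the opposite strand after the start. Of the other 2 Il1rn windows, one held TGAGTCA, beginning 141 bases before its start, and the other, which overlaps the window shown, held the same TTGGGGAA. The Il18 window held only TATAAA on the opposite strand, 175 bases before the start. Over all 32851 promoter windows of the same length, 13.6% held TATAAA, 7.81% TGANTCA and 13.3% TTGNGNAA. The motifs were chosen with the results known and describe letters only. They do not separate the genes that met the rule from Il1a.

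Il1b encodes the secreted pro-inflammatory cytokine that caspase-1 releases from its precursor. Its log2 signal in wild type ran from 6.88 to 9.0 with a median of 8.15. The knockout arrays 1 to 5 read 9.97, 10.01, 8.25, 8.91 and 8.93. Knockout arrays 1 and 2 stood above all wild type arrays, and the other 3 lay within the wild type range, which wild type array 5 extended upward. The means were 8.01 ± 0.72 (SD, n = 6) and 9.21 ± 0.76 (SD, n = 5), a 2.3-fold difference of 1.2 (SE 0.38). The unadjusted limma p was 0.0072, the adjusted p 0.76 and the exact permutation p, two-sided over all splits of the arrays into 6 and 5, 0.028. Every knockout array lay above the wild type mean. With any 1 array left out the difference stayed between 0.97 and 1.44.

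Il1rn encodes the antagonist that occupies the IL-1 receptor without signalling. In wild type its log2 signal ran from 9.25 to 11.17 with a median of 10.27. The knockout arrays 1 to 5 read 11.56, 11.78, 10.78, 11.26 and 11.18. Only wild type array 5 reached the knockout range, and knockout array 3 was the lowest of its group. The difference was 1.10 (SE 0.29), or 2.15-fold, with an unadjusted limma p of 0.0021, an adjusted p of 0.76 and an exact permutation p of 0.011. It had the smallest p of the 9 genes. The difference stayed between 0.91 and 1.30 with any 1 array left out.

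Il1a encodes IL-1 alpha, which is active without cleavage by caspase-1. Its signal ran from 10.34 to 10.95 in wild type (median 10.58), and the knockout arrays read 11.12, 10.03, 10.50, 10.21 and 10.39 in the order of their numbers. The groups overlapped, knockout array 1 was the highest of all 11 arrays, and the other 4 lay below the wild type mean. The difference was -0.18 (SE 0.18), with a 95% interval from -0.57 to 0.21 and an exact permutation p of 0.383. The within-array log2 ratio of Il1b to Il1a was on average 1.38 higher in knockout and that of Il1b to Il1rn 0.097 higher. These are given as a description with no test, since the pairs were chosen after the values were seen.

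Il18 encodes an IL-1 family cytokine that induces interferon gamma in lymphocytes. Its signal ran from 4.01 to 5.13 in wild type (median 4.52), and in knockout arrays 1 to 5 it was 5.67, 6.65, 4.66, 4.91 and 5.32. It exceeded the array's own antigenomic background in 1 of 6 wild type and 4 of 5 knockout arrays. The wild type level was thus at background in 5 of 6 arrays, and the 1.91-fold difference does not measure how far expression differed. On the log2 scale it was 0.94 (SE 0.31), with an unadjusted limma p of 0.0094, an adjusted p of 0.76 and an exact permutation p of 0.017. Knockout array 2 was the highest, and the difference was 0.63 at its smallest with 1 array left out.

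Il18bp encodes a secreted protein that binds and neutralizes IL-18. It read from 9.15 to 9.45 in wild type (median 9.38), and in knockout 9.81, 10.36, 9.47, 9.42 and 9.40 in the order of array numbers. Arrays 1 and 2 stood apart from the other 3 knockout arrays, which lay near the top of the wild type range. The difference of 0.35 (SE 0.16) was under 1.5-fold, with an unadjusted limma p of 0.049, an adjusted p of 0.76 and an exact permutation p of 0.013. The difference was 0.19 at its smallest with 1 array left out.

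Il33 encodes the nuclear cytokine that is released on cell damage. It read from 8.44 to 9.55 in wild type (median 9.36) and 8.94, 9.38, 9.66, 10.40 and 9.91 in knockout arrays 1 to 5. Here knockout arrays 1 and 2, the highest for Il1b and Il1rn, were the lowest of their group. Wild type arrays 2 and 4 read 8.65 and 8.44 and the other wild type arrays at least 9.35. The difference was 0.52 (SE 0.27), with a 95% interval from -0.05 to 1.10, an unadjusted limma p of 0.070 and an exact permutation p of 0.119. Il33 met the rule without wild type array 1 (0.61) or without knockout array 1 (0.70).

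Il1r1, the signalling receptor, read from 11.16 to 12.16 in wild type (median 12.04) and 11.49, 11.23, 11.86, 12.03 and 12.04 in knockout arrays 1 to 5. No knockout array exceeded the highest wild type array, and wild type arrays 2 and 4 and knockout arrays 1 and 2 were the low ones. The difference was -0.07 (SE 0.22), with a 95% interval from -0.55 to 0.42 and an exact permutation p of 0.762, and its sign turned without wild type array 6 (0.006) or knockout array 2 (0.058). Il1rap, the co-receptor shared by IL-1, IL-33 and IL-36 receptors, read from 5.69 to 7.17 in wild type (median 6.70) and 7.37, 6.49, 7.19, 7.07 and 6.56 in knockout, with overlapping groups. Its difference was 0.37 (SE 0.25), with a 95% interval from -0.17 to 0.92 and an exact permutation p of 0.234. Il1r2, the decoy receptor, read from 6.74 to 7.60 in wild type (median 6.79) and 7.67, 7.40, 6.23, 6.47 and 6.82 in knockout. Its knockout arrays spread on both sides of the wild type group. The difference was -0.04 (SE 0.25), with a 95% interval from -0.59 to 0.51 and an exact permutation p of 0.894, and it was above 0 without wild type array 5 (0.088) or without knockout array 3 (0.13) or 4 (0.072).

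**Figure D2:**
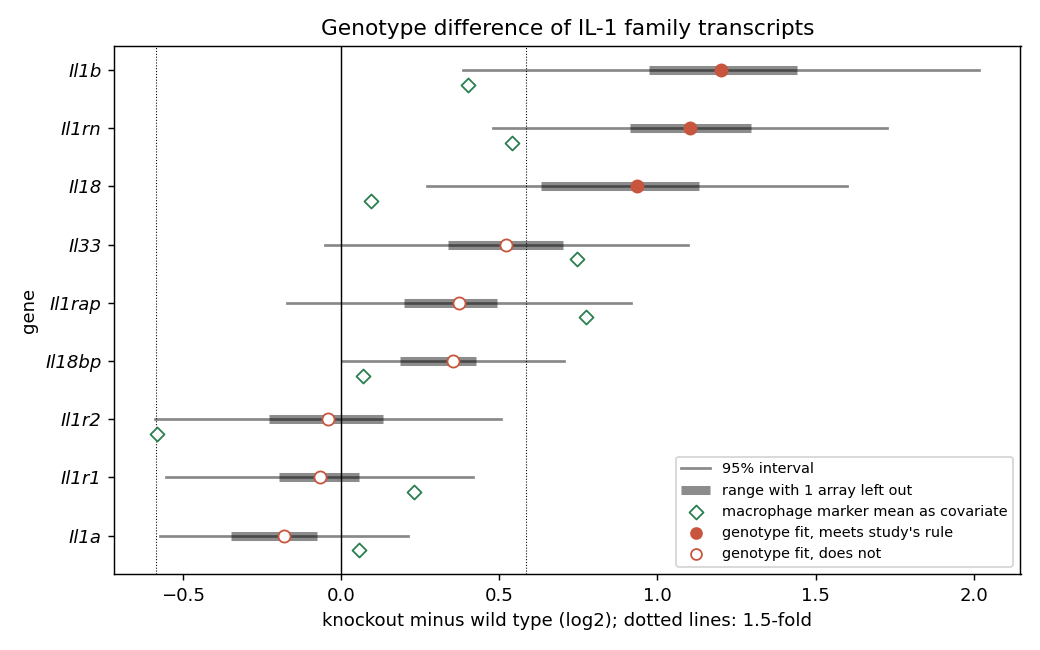
Knockout minus wild type difference (log2) of the 9 genes from limma, with its 95% interval (thin line), the range over fits with 1 array left out (thick line) and the estimate from a fit that includes the macrophage marker mean (diamond); filled points met the study's rule and dotted lines mark 1.5-fold. Il1b, Il1rn and Il18 met the rule in the genotype fit, and their estimates with the covariate were 0.40, 0.54 and 0.10.

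Some pairs of the genes varied together from array to array. After subtraction of the genotype means, Il1b and Il1rn followed each other over the 11 arrays (Pearson r = 0.893, permutation p = 0.00019, adjusted p = 0.0068 over the 36 pairs; Spearman rho = 0.900, permutation p = 0.00035, adjusted p = 0.013), with r = 0.789 without the 2 arrays farthest from the median. Il18 and Il1r2 were also related (r = 0.822, permutation p = 0.0012, adjusted p = 0.014; rho = 0.870, permutation p = 0.00087, adjusted p = 0.016; r = 0.809 without 2 arrays), although most Il18 values lay at background. Il1r1 and Il33 went together by Pearson's r (0.878, permutation p = 0.0012, adjusted p = 0.014), and without 2 arrays r was 0.874. Their Spearman rho was 0.745 (permutation p = 0.011, adjusted p = 0.090). Of the 36 pairs 5 passed an adjusted p of 0.05 by Pearson's r and 2 by both measures. The other 2 that passed by Pearson's r were Il1b with Il1r2 (r = 0.822) and Il18 with Il18bp (r = 0.809).

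The macrophage markers also read higher in knockout, and the order of Il1b, Il1rn and Il18 over arrays followed theirs in part. All 17 macrophage markers lay above 0 between genotypes, with a median difference of 1.12, and 14 met the rule as higher (0.671% of all clusters did). Within genotype, Il18 was related to the macrophage mean (Pearson r = 0.860, permutation p = 0.0012, adjusted p = 0.011 over 9 genes; Spearman rho = 0.636, permutation p = 0.041, adjusted p = 0.13), and r came to 0.481 once knockout array 2 and wild type array 5, which lay farthest from the median, had been left out. For Il1b r was 0.658 (permutation p = 0.025, adjusted p = 0.075; rho = 0.573, permutation p = 0.071, adjusted p = 0.13) and fell to 0.343 without those arrays. For Il1rn r was 0.619 (permutation p = 0.043, adjusted p = 0.097; rho = 0.555, permutation p = 0.081, adjusted p = 0.13) and fell to 0.224. Knockout array 2 and wild type array 5 were picked by the macrophage mean itself. Leaving them out narrows the range of that mean, which can lower r on its own. The lower r therefore does not show whether these relations rest on those 2 arrays. With both arrays left out of the comparison Il1b, Il1rn and Il18 met the rule. The macrophage means of the remaining arrays still differed by genotype, at 7.18 to 7.71 in wild type and 7.75 to 8.84 in knockout.

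**Figure D3:**
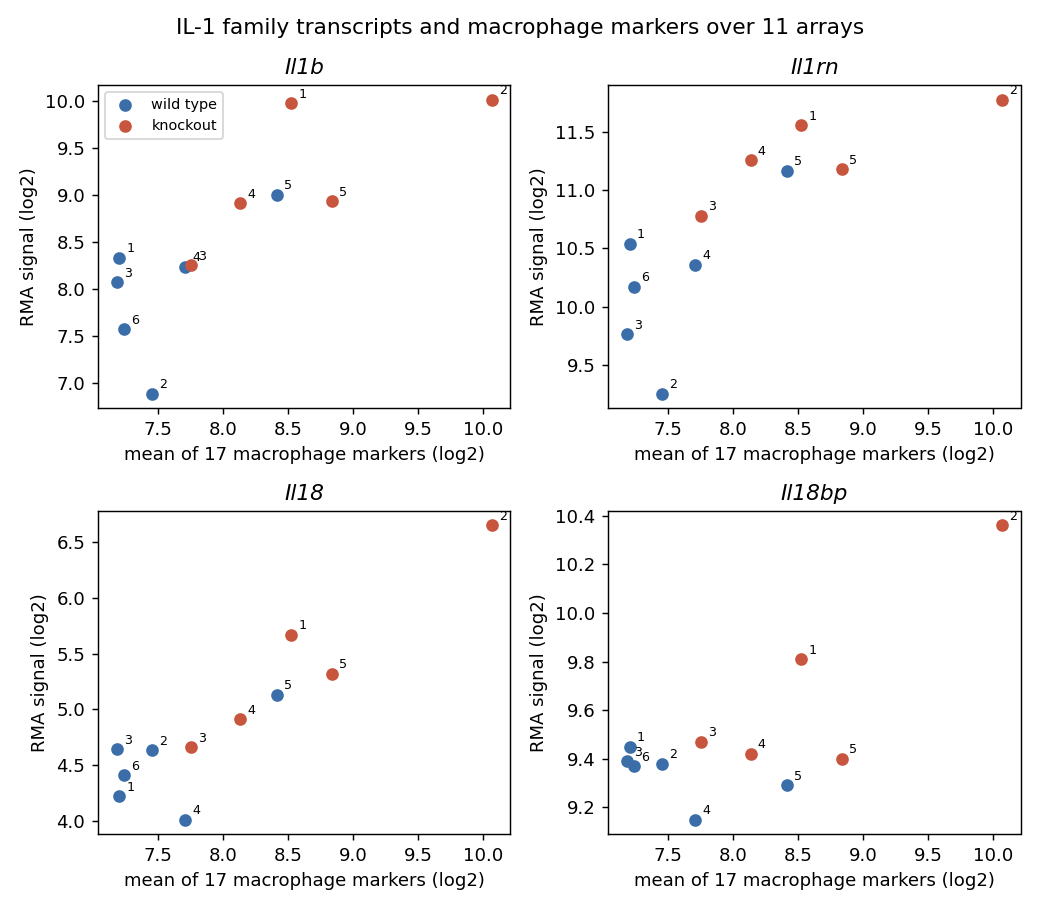
RMA signal (log2) of Il1b, Il1rn, Il18 and Il18bp against the mean of 17 macrophage markers (log2) in 6 wild type and 5 knockout arrays, labelled by replicate number. Knockout array 2, at a marker mean of 10.07, holds the highest signal of all 4 genes, and wild type array 5, at 8.42, is the highest wild type array for Il1b, Il1rn and Il18.

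With the macrophage mean as a covariate the called genes changed. Il1b (0.40, SE 0.39), Il1rn (0.54, SE 0.31) and Il18 (0.10, SE 0.23) no longer met the rule, while Il33 (0.75, SE 0.35) and Il1rap (0.78, SE 0.30) did. In that fit 1714 of all 22206 clusters met the rule, against 228 with genotype alone, so calls rose over the whole table. With the hepatocyte mean alone as a covariate, Il1b (1.93), Il1rn (1.67) and Il18 (1.44) met the rule. With the macrophage and hepatocyte means together, Il1rn alone was called. The part that macrophage RNA has in the Il1b and Il1rn differences was not tested beyond these fits. Of 36 further relations to neutrophil, stellate cell and hepatocyte marker means and to the intron controls, 0 passed an adjusted p of 0.05. The smallest permutation p among them belonged to Il1b and the neutrophil mean (r = 0.784, permutation p = 0.0043, adjusted p = 0.11; rho = 0.645), a mean that was 6.49 ± 0.47 (wild type, SD, n = 6) against 6.47 ± 0.72 (knockout, SD, n = 5). For Il1rap and the mean of the array's intron control probes r was 0.723 (permutation p = 0.012, adjusted p = 0.11; rho = 0.791). With the hepatocyte mean r was 0.684 for Il1b (permutation p = 0.021, adjusted p = 0.13; rho = 0.736). For Il1rn it was 0.700 (permutation p = 0.016, adjusted p = 0.11; rho = 0.664). Il18 and the stellate cell mean had r = 0.745 (permutation p = 0.0077, adjusted p = 0.11; rho = 0.582). Relations of this size were thus not particular to the macrophage mean.

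The genes whose log2 pattern over the 11 arrays was most like each member were listed by Pearson's r, as a description only, since they were picked for it. For Il1b these were Mpeg1 (r = 0.979), Ptprj (0.978) and Apbb1ip (0.958), and for Il1rn Cd180 (0.982), Cd44 (0.981) and Ptprj (0.968). All 5 of these genes met the rule as higher in knockout. For Il1r1 they were Adam9 (0.944), Afdn (0.940) and Osmr (0.932), and for Il33 Tnfrsf22 (0.932), Tyw5 (0.929) and Usp42 (0.929), none of which met the rule. Il1rap was most like Ints12 (0.982), Tmtc2 (0.949) and Zfp869 (0.948), Il1a like Rec8 (0.908), Epm2a (0.897) and Slc5a5 (0.896), and Il1r2 like Cabyr (0.936), Slc2a3 (0.924) and Tpd52 (0.924). For Il18bp, Snd1 (0.948), Fermt3 (0.936) and Bub1b (0.934) came first by Pearson's r, with Spearman rho between 0.545 and 0.764. All share the same arrays and their quality.

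Around the members, 5 lists of pathway genes were examined, with 76 genes measured. Of these, 5 met the rule as higher in knockout and 0 as lower, beside 0.671% and 0.356% of all clusters. Of 7 other ligands and receptors of the family, 0 met the rule and the median difference was 0.001. The IL-18 receptor chain Il18r1 and the orphan receptors Il1rapl1 and Il1rapl2 read below background in every array. The 4 of smallest p were Il1f10 (-0.11, SE 0.12), the inhibitory receptor Sigirr (-0.16, SE 0.17), the IL-36 receptor Il1rl2 (-0.20, SE 0.24) and the IL-18 receptor accessory chain Il18rap (0.10, SE 0.13).

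Over all clusters 46.0% lay above 0. Of 17 signalling genes downstream of the receptors, 13 lay above 0 with a median of 0.15, and 0 met the rule (limma, 0 at an unadjusted p of 0.05). The members of smallest p were the inhibitory kinase Irak3 (0.34, SE 0.17), the IKK subunits Ikbkg (0.29, SE 0.14) and Ikbkb (0.15, SE 0.10), and the kinase Irak2 (0.29, SE 0.20). The adaptor Myd88 read 10.63 ± 0.44 (wild type, SD, n = 6) against 10.58 ± 0.55 (knockout, SD, n = 5).

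Among 18 genes of cytokine maturation and release the median was -0.05, and Nlrp3, the inflammasome sensor upstream of caspase-1, met the rule. It read 6.97 ± 0.43 (wild type, SD, n = 6) against 7.95 ± 0.68 (knockout, SD, n = 5), with a difference of 0.99 (SE 0.29) and an exact permutation p of 0.017, and with the macrophage mean as a covariate it no longer met the rule (0.58), nor with the macrophage and hepatocyte means together (1.23). Ninj1, which ruptures the plasma membrane of dying cells, differed by 0.42 (SE 0.12, 1.33-fold, exact permutation p = 0.0087), short of the rule. The neutrophil protease Elane (-0.30, SE 0.15) and the pyrin gene Mefv (0.39, SE 0.19) followed. Casp1 itself differed by -0.11 (SE 0.33) and the pore-forming Gsdmd by -0.09 (SE 0.19).

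Of 20 genes that IL-1 is known to induce, 16 lay above 0 (46.0% of all clusters did), with a median of 0.19, and 4 met the rule as higher (0.671% of all clusters did): Il6 (1.49, SE 0.36), Ptgs2 (1.33, SE 0.41), Ccl2 (0.78, SE 0.19) and Cxcl2 (0.69, SE 0.19). With the macrophage mean as a covariate Il6 (0.66), Ptgs2 (1.06) and Cxcl2 (0.42) did not meet it, and with the macrophage and hepatocyte means together none of the 4 did. Cxcl2 also fell short without knockout array 1 (0.57), with array weights (0.55) and with the stellate cell mean (0.58). Of the NF-kB feedback genes, Tnfaip3 differed by 0.23 (SE 0.10, 1.17-fold), with an exact permutation p of 0.011 and 4 of 5 knockout arrays above every wild type array. It fell short of the rule by its fold, as did the neutrophil chemoattractant Cxcl1 (0.41, SE 0.17). Nfkbia (0.03, SE 0.10), Nfkbiz (0.12, SE 0.12) and Zc3h12a (0.21, SE 0.24) had smaller differences relative to their errors. Of 14 genes tied to cells that respond to IL-33 or IL-18, 0 met it and the median was -0.12. Il13 (-0.26, SE 0.12), Tbx21 (-0.25, SE 0.11) and Il9r (-0.28, SE 0.14) lay lower by less than 1.5-fold, and Retnla was below background in every array. Markers of T, natural killer and innate lymphoid cells averaged 5.75 ± 0.23 (wild type, SD, n = 6) against 5.93 ± 0.42 (knockout, SD, n = 5), near the background of 4.67 to 5.17.

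**Figure D4:**
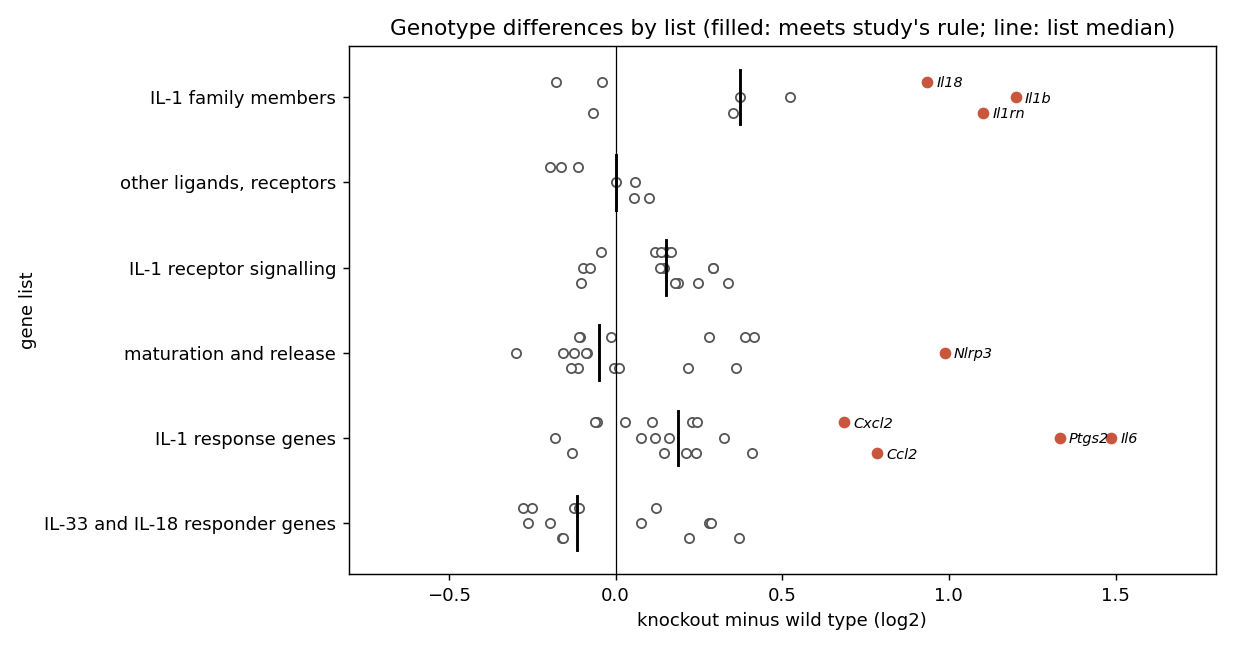
Knockout minus wild type difference (log2) of each measured gene in the IL-1 family and 5 pathway lists; filled points met the study's rule, and vertical lines are list medians. The called genes are Il1b, Il1rn and Il18 of the family, Nlrp3 of maturation and release, and Il6, Ptgs2, Ccl2 and Cxcl2 of the response genes.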

How the data were processed

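The arrays are Mouse Clariom S. The authors' tools were Affymetrix Expression Console and RMA, per the submitters' processing notes. The deposited values are log2 signals per transcript cluster, a scale read from their range (1.86 to 13.79). RMA equalizes distributions between arrays, so a change shared by most genes is removed and weak signals are compressed. Versions and the genome build are not given in the sources used here.

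From 28846 rows, 6640 control rows were left out and 22206 clusters tested with limma 3.58.1 in R 4.3.3 (genotype only, Benjamini-Hochberg over all clusters). Single values were also tested by a two-sided exact permutation over all splits of the arrays, and correlations over arrays by 100000 permutations. The number of arrays limits the precision. Named genes were the members, up to 4 genes of smallest p per list, the 3 genes most like each member that read above background in all arrays, and others singled out after their values were seen. The members and lists were chosen with earlier results of these data known. The fit was tested on simulated data. Alternatives covered arrays left out, scaling, covariates, filters and thresholds.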

Additional observations from a re-analysis of the deposited data

Results flagged for a closer look

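Over 58 groups of 5 or 6 arrays (9 members and 20 named pathway genes in each genotype), 1 value stood apart from the others of its group by Dixon's criterion at 95%, where chance gives about 1 in 20. It was Il6 in wild type array 5, at 8.79 on the log2 scale, with the next wild type array at 7.04 and the lowest at 6.41. That array also had the highest Il1b, Il1rn, Il18 and Il1r2 signals of the wild type group. Its macrophage, hepatocyte, neutrophil and stellate cell marker means were each the highest of that group as well. No member of the IL-1 family stood apart by this criterion in either genotype. Without wild type array 5, Il6 differed by 1.83 (SE 0.20) and passed an adjusted p of 0.05 in limma (0.021), whereas with all arrays it differed by 1.49 (SE 0.36, adjusted p = 0.76).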

How the results depend on the processing

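Il1b, Il1rn and Il18 all met the study's rule in 23 of the 25 alternatives for the count of members, including each array left out in turn (3 to 4 members called). The exceptions were the macrophage mean as a covariate (2 called, Il33 and Il1rap) and the macrophage and hepatocyte means together (1 called, Il1rn), which left Il18 at -0.18. In a further fit outside these 25, run for single genes with the stellate cell mean as a covariate, Il18 fell short of 1.5-fold (0.58). The cause of these changes was not tested. An adjusted p of 0.05 was passed by 0 to 1 clusters with 1 array left out, 22 with the macrophage mean and 8 with the hepatocyte mean, against 0. Without wild type array 5 the cluster was Il6 (1.83, limma adjusted p = 0.021). The rule was met by 228 clusters, by 171 to 314 with 1 array left out, 1714 with the macrophage mean, 572 with the hepatocyte mean, 1247 at a fold of at least 1.2 and 131 with exact permutation p-values. Pathway genes meeting it numbered 9 with the hepatocyte mean, 8 at a fold of at least 1.2 and 4 to 5 with 1 array left out, against 5.

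Apart from Il18 (-0.18 with the macrophage and hepatocyte means together), signs turned only for differences that had not met the rule. Il1r1 read 0.00080 with array weights, 0.23 with the macrophage mean, 0.024 with the stellate cell mean, 0.038 with the macrophage and hepatocyte means together and 0.095 without wild type array 5 and knockout array 2. It lay between -0.19 and 0.058 with 1 array left out, and Il1r2 between -0.23 and 0.13. With the macrophage mean Il1a read 0.058, Il1f10 0.019, Il1rl2 0.067, Irak2 -0.12 and Mefv -0.062. With the hepatocyte mean Il1r2 read 0.33 and Sigirr 0.099. With both means Il1a read 0.18, Il18rap -0.076 and Ikbkb -0.21. Deviations of same-numbered arrays correlated at -0.32 to 0.39, and 1 of 5 wild type and 0 of 5 knockout arrays correlated best with their own number, so the numbers were treated as names. With the replicate block 3 members, 5 pathway genes and 250 clusters met the rule, 0 clusters passed an adjusted p of 0.05 and Il1r1 read 0.006. The alternatives with both arrays left out, with both means together and with the stellate cell or neutrophil mean were chosen after seeing the data. Signal near background limits Il18.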
